A study of Mus musculus with 16 samples.

Results

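Fat cells store triglyceride in lipid droplets and release it as fatty acids when energy is needed. The 10 genes described here encode the proteins that carry out this release and those that coat the droplet: Pnpla2, Lipe, Mgll, Abhd5, G0s2, Plin1, Plin2, Plin4, Plin5 and Cidec. They were taken by symbol, with all their probes, and had 15 probes of the 28215 probes on the array that could be named by a gene. All 10 genes were among the 15466 genes tested. Tissue came from male mice, and each of 4 groups was measured on 4 Agilent arrays: brown fat of mice with a knockout of the glucocorticoid receptor (GR) specific to adipose tissue, brown fat of control mice, white fat of the knockout mice, and white fat of the controls. The series' design text describes the controls as wild-type. The promoter that drives the deletion, the part of Nr3c1 that is deleted, the fat depot, the age and the feeding state are not given in the sources used here.

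In lipolysis, adipose triglyceride lipase, encoded by Pnpla2, removes the first fatty acid from triglyceride, hormone-sensitive lipase (Lipe) cleaves the diglyceride, and monoglyceride lipase (Mgll) frees the last fatty acid and glycerol. The protein of Abhd5 activates the first lipase and that of G0s2 inhibits it, while perilipin 1, the main droplet coat of fat cells, holds the activator back until protein kinase A phosphorylates it. Glucocorticoids are known to promote lipolysis in white fat, and the receptor acts by binding DNA at pairs of short half-sites.

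Promoters of G0s2 and Plin2 are shown because these were the members at which the first knockout array of each tissue lay furthest below the controls. A promoter of Lipe is shown because it held a pair of core half-sites of the receptor. Each sequence is the 250 bases before a transcription start in RefSeq's annotation of GRCm38.p6, read 5′ to 3′ on the gene's strand, which is the minus strand for each: chr1:193273189-193273438 for G0s2, chr4:86670060-86670309 for Plin2 and chr7:25390113-25390362 for 1 of the Lipe starts. Capitals mark motif matches.
G0s2: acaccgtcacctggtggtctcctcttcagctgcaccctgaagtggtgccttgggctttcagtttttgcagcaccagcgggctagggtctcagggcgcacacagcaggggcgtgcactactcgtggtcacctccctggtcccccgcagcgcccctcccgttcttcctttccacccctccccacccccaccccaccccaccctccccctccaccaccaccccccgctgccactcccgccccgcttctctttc
Plin2: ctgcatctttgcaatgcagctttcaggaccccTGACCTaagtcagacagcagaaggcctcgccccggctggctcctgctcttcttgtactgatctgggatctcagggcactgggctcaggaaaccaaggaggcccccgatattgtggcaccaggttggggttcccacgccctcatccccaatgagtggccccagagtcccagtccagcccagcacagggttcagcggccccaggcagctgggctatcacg
Lipe: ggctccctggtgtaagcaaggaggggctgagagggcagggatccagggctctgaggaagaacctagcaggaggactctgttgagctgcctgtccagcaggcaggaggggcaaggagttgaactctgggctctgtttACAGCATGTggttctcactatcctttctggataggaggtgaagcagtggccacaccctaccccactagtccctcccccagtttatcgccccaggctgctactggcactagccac
In Plin2 the capitals mark AGGTCA, the half-site of PPAR and other nuclear receptors, read on the other strand, 218 to 213 bases before the start. In Lipe they mark ACANNNTGT, the core of a receptor palindrome, 114 to 106 bases before the start.

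The 10 genes had 14 annotated promoters, which were searched on both strands for 6 motifs. The full receptor palindrome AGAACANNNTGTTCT was in 0 of the 14, and in 0.00913% of all 32851 promoters of the same length. Its core ACANNNTGT, which the full palindrome contains, was in 1, that of Lipe, against 5.835% of all promoters. The half-site AGAACA, which the full palindrome also contains, was in 1, that of Mgll, against 16.1% of all. The PPAR repeat AGGTCANAGGTCA was in 0, against 0.0335% of all, and the single AGGTCA was in 3, those of Abhd5, Plin2 and Plin5, against 14.0% of all. The E-box CACGTG was in 2, those of Lipe and Mgll, against 6.02% of all. These matches describe letters in the window only, and the G0s2 promoter held none of the 6.

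Some arrays stood apart or repeated each other. Levels are given as log2 intensity minus the 75th percentile of the array, so that a gene at the 75th percentile of all spots has a level of 0, and 67.3% to 77.0% of each array's spots exceeded background clearly. Among 24 within-group pairs of arrays, 9 lay closer together than the error that the scanner software assigns to a spot, although the design text calls all arrays of a group biological replicates. Such arrays were averaged and counted as 1 sample, which left 9 distinct samples: brown knockout array 1 and the mean of arrays 2 to 4, brown control array 1, array 4 and the mean of arrays 2 and 3, white knockout array 1 and the mean of arrays 2 to 4, and in white controls the means of arrays 1 and 4 and of arrays 2 and 3. The white control pairs only just exceeded that error. No source used here ties an array to an animal, so p-values measure only the spread between these samples, and with 2 samples in a group they rest on a spread pooled over the groups. The sample of brown control arrays 2 and 3 went against its label on some brown fat markers. Ucp1, the uncoupling protein that defines brown fat cells, had a level of -0.83 there. The other brown control samples had 6.54 and 8.07, and the white controls -1.88 and -1.68. The Ucp1 probe was still well above background on all 4 brown control arrays. Of 10 brown adipocyte markers, 8 lay below the brown control mean in this sample, with a median difference of -0.88. Cidea and Elovl3 were at 2.75 and -4.74, below both white control samples. Cox8b and Ppargc1a were at 7.14 and 1.35, near the other brown controls. Its level of Cox7a1, which muscle also expresses, was 7.94 and lay with the other brown samples. Adiponectin (Adipoq), which defines fat cells, was at 6.62 or higher in all 9 samples.

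The targeted gene Nr3c1 was lower in each knockout array than in each control array of its tissue on its brightest probe. Its levels were between 1.50 and 1.76 in brown knockouts and between 2.29 and 2.63 in brown controls, and between 1.23 and 1.50 in white knockouts and between 2.01 and 2.43 in white controls. The log2 difference was -0.85 ± 0.21 (SE) in brown and -0.90 ± 0.23 in white fat, with limma adjusted p = 0.619 and 0.414. Of its other 3 probes, 1 did not separate the white groups, and whether any probe lies in the deleted part is not known here.

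In white fat all 10 genes had a lower mean in knockout than in control samples, with a median log2 difference of -0.96, but no gene passed the test. The median of all genes tested was -0.04, and 52.5% of all genes had a lower mean. The test was limma with Benjamini-Hochberg adjustment over all genes and a threshold of 0.05, by which 0 of the 10 genes and 0% of all genes passed. At an unadjusted p under 0.05, 2 of the 10 were lower, G0s2 and Plin2, beside 6.44% of all genes.

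G0s2, the inhibitor of adipose triglyceride lipase, had the largest difference of the 10 in white fat. Its levels on arrays 1 to 4 were 3.30, 2.24, 2.52 and 2.37 in white knockouts, against 4.86, 4.27, 4.16 and 4.81 in white controls. The 4 knockout values were all below the 4 control values. The log2 difference was -1.69 ± 0.41 (SE, 2 samples each), or 3.22-fold lower, with limma adjusted p = 0.390 and a 95% interval of -2.66 to -0.72.

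Plin2, which coats droplets in most cell types, was the member at which the first white knockout array lay furthest below the controls. Its levels on arrays 1 to 4 were 5.49, 5.70, 5.80 and 5.81 in white knockouts, against 7.33, 6.97, 6.81 and 7.14 in white controls. The knockout arrays lay close together and all below the controls. The difference was -1.43 ± 0.55 (SE), with limma adjusted p = 0.485.

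Among the lipases, Pnpla2 had levels of 6.57, 4.97, 4.95 and 4.90 in white knockouts, against 7.03, 6.69, 6.48 and 6.88 in white controls. Array 1 of the knockouts lay within the controls and the other 3 far below them. The same split, with array 1 beside the controls, was seen in Lipe, at 3.74, 2.28, 2.32 and 2.24 in white knockouts against 4.07, 3.90, 3.75 and 3.89 in white controls. Mgll stood at 6.66, 4.78, 4.91 and 4.92 in white knockouts and at 6.82, 6.46, 6.42 and 6.76 in white controls. The differences were -1.02 ± 0.58 for Pnpla2, -0.89 ± 0.58 for Lipe and -0.85 ± 0.58 for Mgll, with limma adjusted p between 0.554 and 0.592. Abhd5, the activator, had levels of 0.66, -1.31, -0.92 and -1.29 in white knockouts, against 0.96, 0.83, 0.81 and 0.93 in white controls, a difference of -1.14 ± 0.58 (adjusted p = 0.526).

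The other droplet proteins also had lower means in white knockouts. Perilipin 5, which tethers droplets to mitochondria in oxidative tissue, is encoded by Plin5 and had levels of 1.75, 0.49, 0.49 and 0.46 in white knockouts, against 2.98, 2.04, 2.18 and 2.90 in white controls; its difference was -1.41 ± 0.71 (limma adjusted p = 0.526). Plin1 had levels of 6.55, 5.05, 5.12 and 5.18 in white knockouts, against 6.97, 6.62, 6.51 and 6.86 in white controls. Plin4, a coat protein of nascent droplets, and Cidec, which enlarges droplets by lipid transfer, had differences of -0.64 ± 0.61 and -0.79 ± 0.65. On knockout array 1 Plin4 and Cidec were at 8.25 and 8.50, and on the other knockout arrays between 6.27 and 6.54, against 7.42 to 8.32 and 8.20 to 8.43 in white controls. All 4 knockout arrays lay below all 4 controls for 5 of the 10 genes, Lipe, Abhd5, G0s2, Plin2 and Plin5, where 18.4% of all genes did so.

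**Figure D1:**
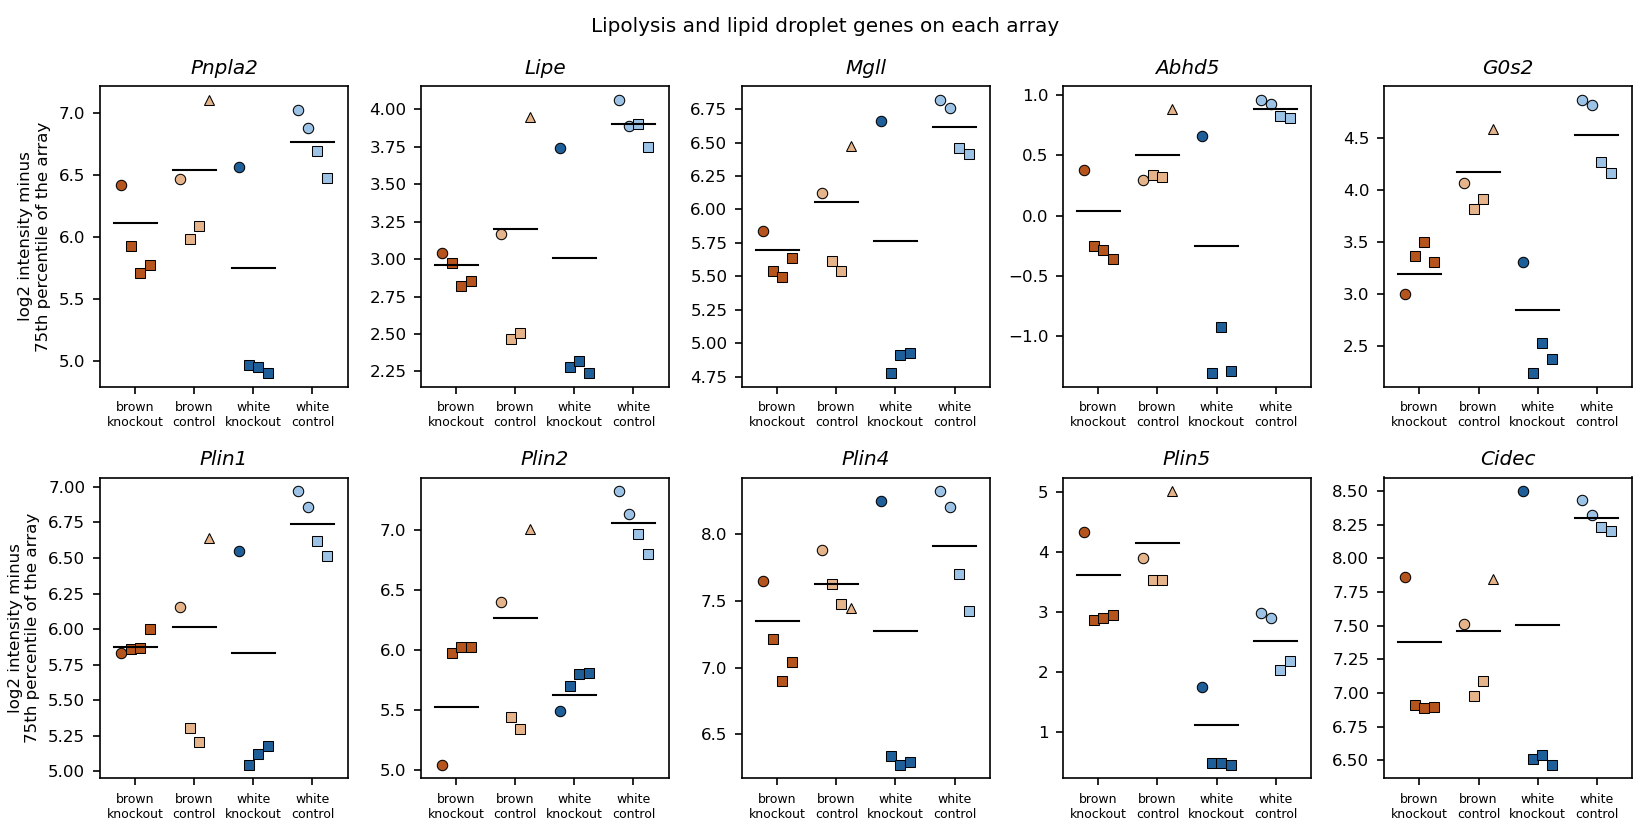
Level of each gene on each array (vertical axis, log2 intensity minus the array's 75th percentile) in brown knockout, brown control, white knockout and white control fat. Points of 1 shape within a group were averaged as 1 sample and the line is the mean over samples; white knockout array 1 (circle) sits apart from arrays 2 to 4 (squares) in each panel but that of Plin2.

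The 2 white knockout samples did not show the same pattern. In the sample of arrays 2 to 4 each of the 10 genes lay below both control samples, with log2 differences from the control mean of -2.15 (G0s2) to -1.29 (Plin2). In array 1 the differences were -1.57 for Plin2, -1.23 for G0s2 and -0.77 for Plin5, while the other 7 genes had differences between -0.22 and 0.34. The median of the 10 was -1.77 in the first of these samples and -0.20 in array 1. Without array 1, 3 genes passed the threshold, Mgll, Abhd5 and G0s2, with limma adjusted p of 0.0471, 0.0358 and 0.0375, beside 1653 of all genes. White knockouts were then 1 sample, which was assumed to vary like the other groups. Without arrays 2 to 4 no member passed, and Mgll, Plin4 and Cidec had positive differences of 0.05, 0.34 and 0.20.

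**Figure D2:**
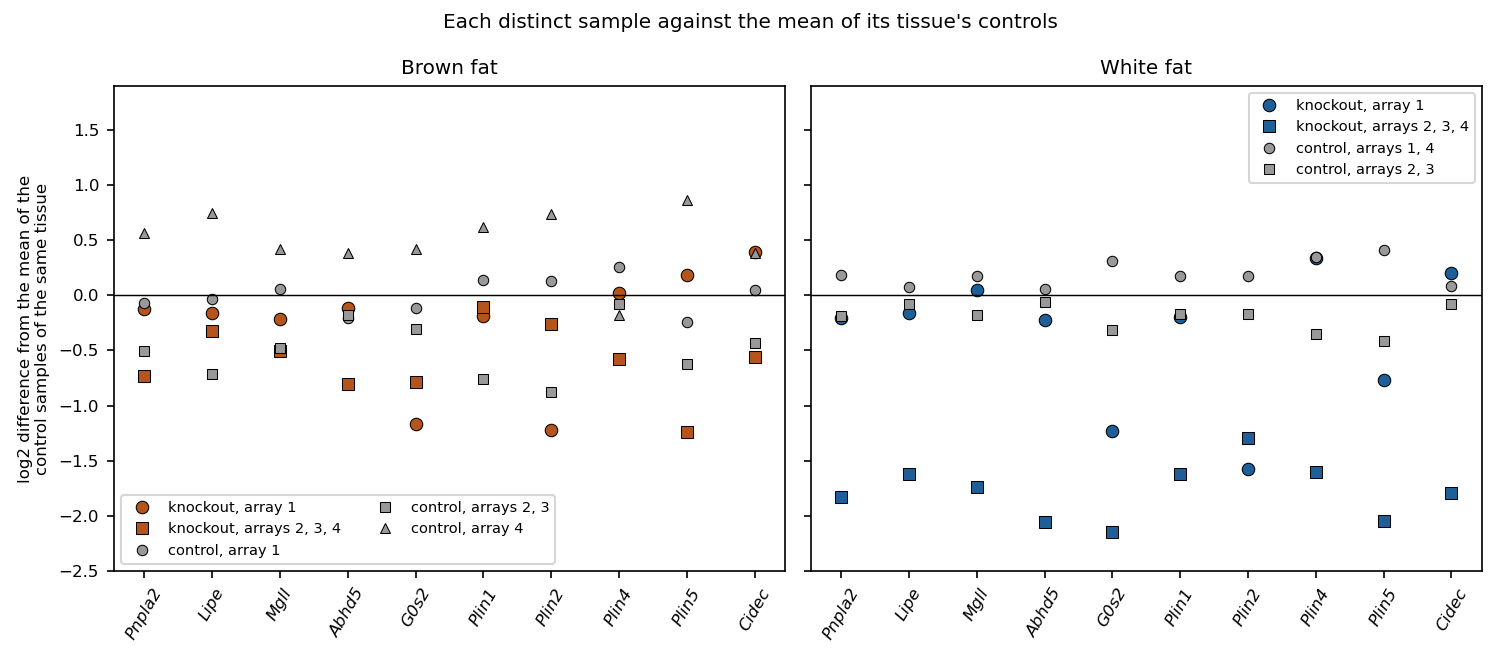
Log2 difference of each distinct sample from the mean of its tissue's control samples (vertical axis) for the 10 genes, in brown fat (left) and white fat (right); coloured points are knockout samples and grey points control samples. In white fat the squares of knockout arrays 2 to 4 lie between -2.15 and -1.29, and in both tissues the circle of knockout array 1 is low at G0s2 and Plin2.

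Markers of other cells moved with these samples. The 10 adipocyte markers, among them Adipoq and Lep, had a median difference from controls of -1.87 in white knockout arrays 2 to 4 and of -0.28 in array 1. In arrays 2 to 4 all 10 were lower, and the summed linear level of the list was 902 there and 1500 in knockout array 1, against 1545 and 1767 in white controls. Of 23 T, B and NK cell markers 22 were tested. All 22 were higher in arrays 2 to 4, by a median of 3.04, and their summed level was 287 there and 30.3 in knockout array 1, against 13.8 and 60.3 in white controls. All 9 tested mesothelial markers were lower in arrays 2 to 4, with a median difference of -3.58, and all 10 proliferation markers were higher, with a median of 2.94, against -0.57 in array 1. Array 1 was mixed on 2 other lists. Of 16 skeletal muscle markers 11 lay below the control mean there, with a median difference of -0.29. Yet Myh7 and Ckm were at 0.88 and 0.47, against -3.91 or lower in white controls. Of 10 brown adipocyte markers 5 lay below, with a median of 0.20. Zic1 was at -3.53, against -8.22 and -8.04 in white controls, where it was not well above background. The part of these cells in the results was not tested, and in whole tissue fewer fat cells and less RNA per fat cell cannot be told apart.

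When each sample was scaled to the mean of the 10 adipocyte markers, a setting chosen after seeing the data, the white knockout differences were between -0.57 and 0.48. They were -0.57 for G0s2, -0.32 for Plin2, -0.29 for Plin5 and -0.02 for Abhd5, and positive for the other 6 genes, with limma adjusted p between 0.262 and 0.963. This scaling set the median of all genes to 1.08. The markers themselves differed by genotype: all 10 had lower means in white knockouts, with a median difference of -1.10. Retn and Lep had the smallest p of the 10, with differences of -2.39 and -2.13, larger than that of any member. Other markers of the list changed little. Fabp4 was at 8.99 and 8.55 in the white knockout samples, against 9.01 and 8.95 in white controls. Cfd was at 8.70 and 8.37, against 8.80 and 8.55. The scaled values therefore depend on the markers used. By sample, G0s2 stood -0.75 in array 1 and -0.40 in arrays 2 to 4 relative to the adipocyte markers, against 0.19 and -0.19 in the white control samples. Plin2 stood -1.10 in array 1 and 0.46 in arrays 2 to 4, against 0.05 and -0.05 in the white control samples. On this scale both white knockout samples lay below both controls for G0s2, and array 1 alone did so for Plin2.

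**Figure D3:**
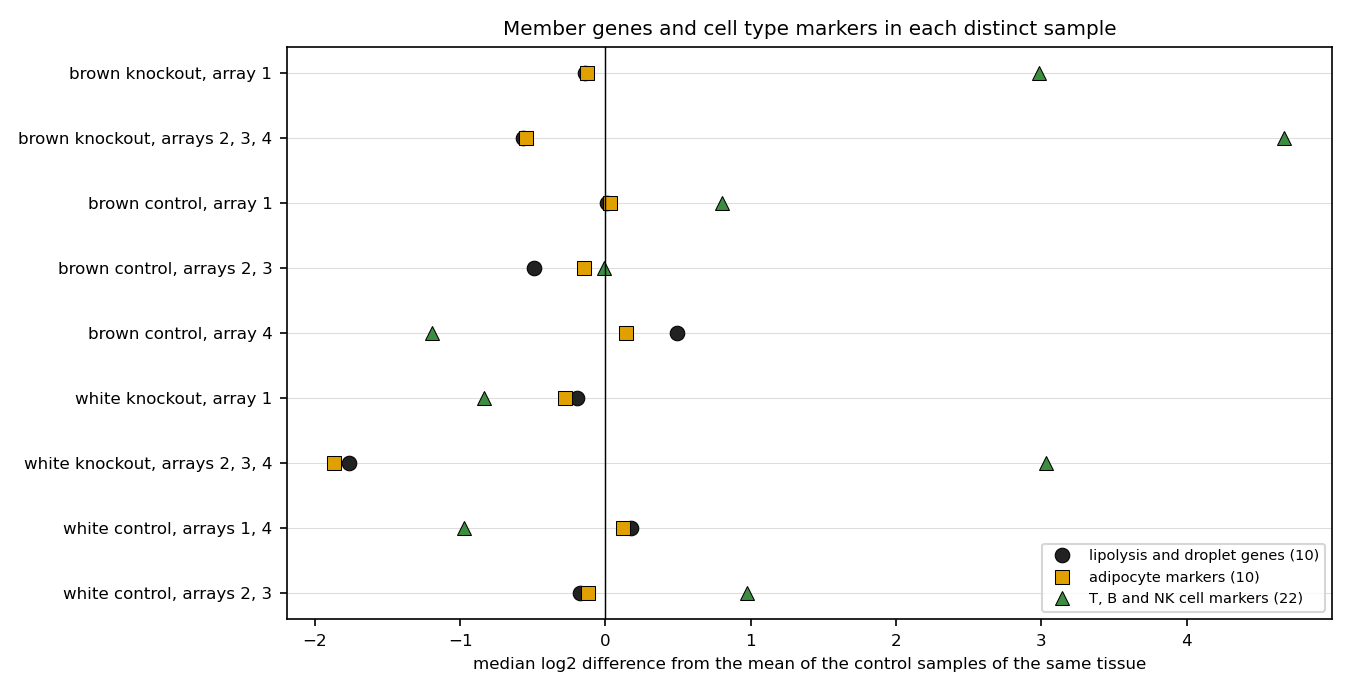
Median log2 difference from the mean of the tissue's control samples (horizontal axis) in each of the 9 distinct samples, for the 10 lipolysis and droplet genes, 10 adipocyte markers and 22 T, B and NK cell markers. The member and adipocyte medians lie together at -1.77 and -1.87 in white knockout arrays 2 to 4, where the lymphocyte markers are at 3.04.

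In brown fat the 10 genes also had lower means in knockout than in control samples, with a median difference of -0.39, where the median of all genes was -0.12 and 60.1% of all genes had a lower mean. By limma 0 of the 10 passed, as did 0% of all genes. G0s2 alone was lower at an unadjusted p under 0.05, beside 4.1% of all genes, and it alone had all 4 knockout arrays below all 4 controls, as did 16.6% of all genes.

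G0s2 had levels on arrays 1 to 4 of 3.0, 3.37, 3.49 and 3.30 in brown knockouts, against 4.06, 3.82, 3.91 and 4.59 in brown controls. The groups did not overlap. The difference was -0.98 ± 0.38 (SE, 2 knockout and 3 control samples), or 1.97-fold lower, with limma adjusted p = 0.619. It was -1.13 without the control sample with low Ucp1.

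Plin2 had levels of 5.04, 5.98, 6.02 and 6.03 in brown knockouts, against 6.40, 5.45, 5.34 and 7.01 in brown controls. The low control values were those of the sample with low Ucp1, and array 1 of the knockouts lay below all controls. The difference was -0.74 ± 0.50 (adjusted p = 0.626, limma), and -1.18 without that control sample. Plin5 had levels of 4.33, 2.87, 2.90 and 2.95 in brown knockouts, against 3.91, 3.53, 3.53 and 5.01 in brown controls. Its knockout arrays 2 to 4 lay below the controls and array 1 among them. The difference of Plin5 was -0.53 ± 0.65 (limma adjusted p = 0.749), or -0.84 without the control sample named above.

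Like Plin5, the lipases, their activator and 3 other droplet proteins differed by less than their standard errors in brown fat. Pnpla2 had levels of 6.42, 5.93, 5.71 and 5.77 in brown knockouts, against 6.47, 5.99, 6.09 and 7.11 in brown controls. Its difference was -0.43 ± 0.53, that of Mgll -0.36 ± 0.52 and that of Lipe -0.24 ± 0.53. The difference of Abhd5 was -0.46 ± 0.53, and those of Plin4, Plin1 and Cidec were -0.28 ± 0.56, -0.15 ± 0.52 and -0.08 ± 0.60, with limma adjusted p between 0.732 and 0.963 for these 7 genes. The 95% intervals still allowed sizeable differences, as from -1.49 to 1.32 for Cidec. Without the control sample with low Ucp1 the median of the 10 was -0.60, the lowest of 22 settings. The highest was 0.08, with each sample scaled to the adipocyte markers.

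Both brown knockout samples had higher lymphocyte markers. The median difference of the 22 markers of T, B and NK cells was 2.98 in brown knockout array 1 and 4.67 in arrays 2 to 4, with 21 of the 22 higher in each, and summed levels of 50.8 and 163, against 2.95 to 38.8 in the brown controls. The adipocyte markers had medians of -0.13 and -0.55 in these samples, beside medians of -0.14 and -0.57 for the 10 genes. In array 1 the difference from the control mean was -1.17 for G0s2 and -1.22 for Plin2, and between -0.22 and 0.40 for the other 8 genes. In arrays 2 to 4 it was -1.24 for Plin5, -0.80 for Abhd5 and -0.78 for G0s2, while Plin2 at -0.26 lay within the control samples. Of 10 proliferation markers, 9 had higher means in brown knockouts, with a median difference of 2.15. All 16 skeletal muscle markers had lower means in brown knockouts, with a median difference of -0.82, and of -1.35 in arrays 2 to 4 alone. The part of these cells in the differences was not tested.

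**Figure D4:**
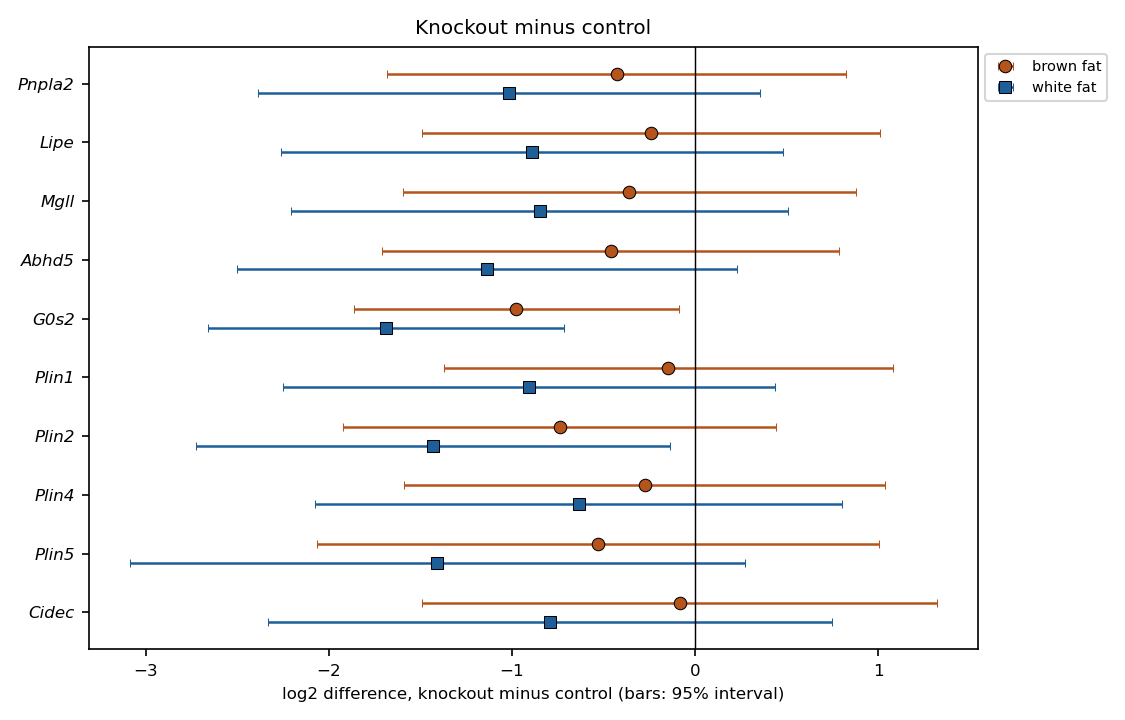
Log2 difference of knockout minus control (horizontal axis) for the 10 genes in brown fat (circles) and white fat (squares), with 95% intervals from limma on 9 distinct samples. All points lie below 0, the lowest being G0s2 at -0.98 in brown and -1.69 in white fat.

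The knockout difference was smaller in brown than in white fat for each gene, but this contrast was not resolved, and 51.4% of all genes also had a positive difference. The brown difference minus the white one had a median of 0.68 over the 10 genes, from 0.36 for Plin4 to 0.88 for Plin5, and the median of all genes was 0.02. No gene of the 10 passed, nor did any of all genes (0%), by limma, and 0 of the 10 had an unadjusted p under 0.05, beside 2.6% of all genes. The interval for G0s2 ran from -0.60 to 2.03. Without white knockout arrays 2 to 4 the median was -0.15, so that its sign rested on that sample.

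White control arrays were on slides 1 and 2 and brown control arrays on slides 3 and 4. White knockout arrays were on slides 2 and 3 and brown knockout arrays on slides 4 and 5. No slide held both tissues of a genotype, so each comparison between tissues was also one between slides. Between tissues Plin5 stood apart from the other members, with higher levels in brown than in white fat in both genotypes. In knockouts its levels on arrays 1 to 4 were 4.33, 2.87, 2.90 and 2.95 in brown fat, against 1.75, 0.49, 0.49 and 0.46 in white fat. Each brown array lay above each white one, as for 13.1% of all genes. The difference was 2.50 ± 0.71 (SE, 2 samples each), or 5.66-fold higher, with limma adjusted p = 0.181. It was 2.58 between the array 1 samples and 2.43 between the samples of arrays 2 to 4. With these taken as pairs, a setting chosen after seeing the data, the adjusted p was 0.0587. In controls, Plin5 levels were 3.91, 3.53, 3.53 and 5.01 in brown fat, against 2.98, 2.04, 2.18 and 2.90 in white fat, again without overlap (22.2% of all genes), and the difference was 1.62 ± 0.65 (adjusted p = 0.198, limma, and 0.0765 with the knockout pairs in the fit). Without the control sample with low Ucp1 it was 1.93. Skeletal muscle markers differed between the tissues as well: all 16 passed as higher in brown fat in both genotypes, with a median difference of 9.06 in knockouts and 10.74 in controls. The part of muscle in the difference of Plin5 was not tested.

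The other 9 genes had lower means in brown than in white control fat, as did 55.1% of all genes. Of the 10 genes 0 passed by limma in either genotype, where 1.51% of all genes passed in knockouts and 5.02% in controls. With the knockout pairs 0 of the 10 passed, beside 618 of all genes in knockouts and 1881 in controls, against 233 and 777 without them. Plin5 was the 1 gene with an unadjusted p under 0.05 in each genotype, and it was higher in brown fat, as were 8.39% of all genes in knockouts and 13.5% in controls at that level. In knockouts 5 of the 9 had higher and 4 lower means in brown fat, between -0.12 and 0.36, and in controls the 9 lay between -0.83 for Cidec and -0.23 for Pnpla2. The knockout values rested on single samples: the median of the 10 was 0.85 without white knockout array 1 and -0.65 without white knockout arrays 2 to 4. Cidec levels in controls were 7.51, 6.98, 7.09 and 7.84 in brown fat, against 8.43, 8.23, 8.20 and 8.33 in white fat. These groups did not overlap, in this direction as for 26% of all genes. Plin2 had a difference of -0.79 ± 0.50 in controls, and of -0.36 without the brown control sample with low Ucp1.

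**Figure D5:**
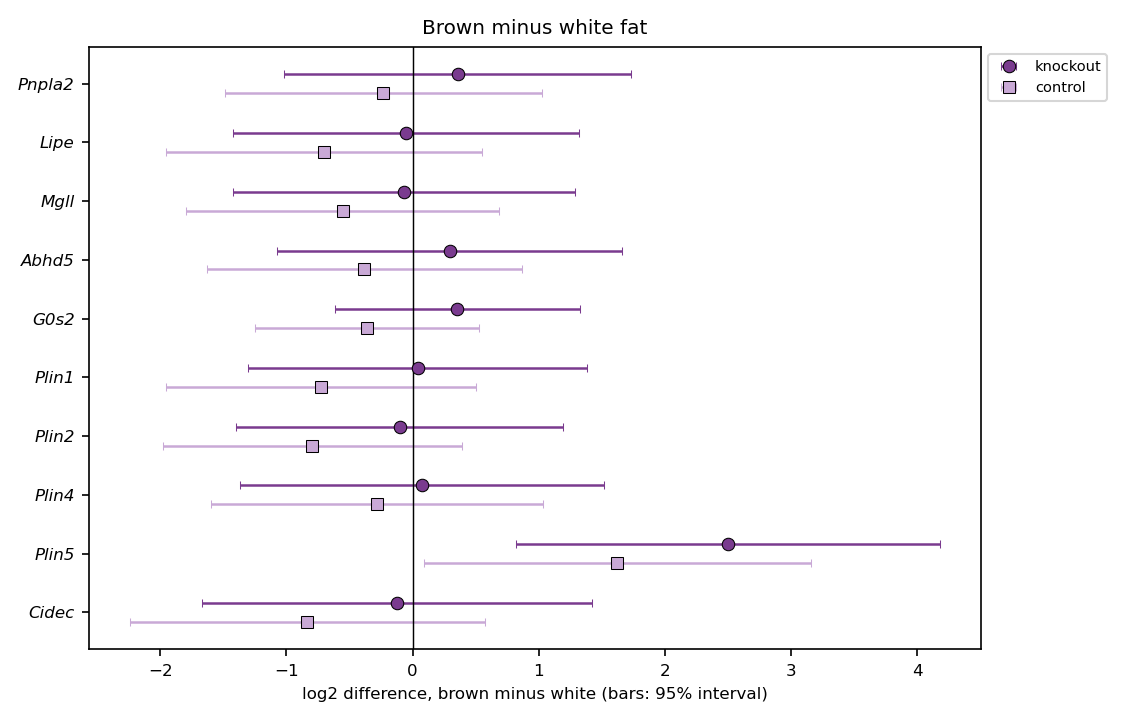
Log2 difference of brown minus white fat (horizontal axis) for the 10 genes in knockout mice (circles) and control mice (squares), with 95% intervals from limma on 9 distinct samples. The intervals for Plin5 lie above 0 before adjustment, at 2.50 in knockouts and 1.62 in controls, and all others include 0.

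When the 16 arrays were instead taken as separate samples, as the design text has them, more genes passed. In white fat all 10 were then lower in knockouts, with limma adjusted p from 0.000201 for G0s2 to 0.0278 for Plin4, in a fit where 25.6% of all genes were called lower. In brown fat 1 gene, G0s2, was lower (-0.80, adjusted p = 0.0272), beside 17.8% of all genes. Plin5 was higher in brown than in white fat in knockouts (2.46, adjusted p = 0.000975, beside 12.9% of all genes higher) and in controls (1.47, adjusted p = 0.0146, beside 19.7%), and Plin1 and Plin2 were lower in controls (beside 19.5% of all genes lower). This fit counts repeat arrays as independent. Within the 1 slide that held both genotypes of a tissue, with 2 arrays each, the difference of G0s2 was -1.06 in brown and -1.72 in white fat, and that of Plin2 was -0.66 in brown and -1.38 in white fat.

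The genes with more than 1 probe gave the same direction in both knockout comparisons. The second probe of Pnpla2 had a difference of -0.63 in brown and -1.55 in white fat, and that of Abhd5 of -0.69 and -1.63. The second probe of Lipe had -0.13 and -1.11. The other 2 probes of Mgll had -0.52 and -0.32 in brown and -1.19 and -0.69 in white fat; 1 of them, the only one of the 15 probes to fail this on any array, was well above background on 13 of 16 arrays. Between tissues the probes of Lipe differed in sign in knockouts, at -0.05 and 0.07.

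The hormone signals upstream of lipolysis are carried by receptors, cyclic AMP and kinases. Of 25 such genes 24 were tested, all but Adrb3, an adrenergic receptor. In white knockouts 19 had lower and 5 higher means, with a median of -0.60, and 0 passed in limma. The smallest p-values were those of Npr3, the clearance receptor of natriuretic peptides (-1.46 ± 0.43, adjusted p = 0.432), and Ptger3, a prostaglandin receptor that restrains lipolysis (-1.64 ± 0.57, adjusted p = 0.460). In brown knockouts 13 were lower and 11 higher, with a median of -0.19 and 0 passing. There Gnas, the stimulatory G protein, had a difference of -0.81 ± 0.37 and Adra2a, an inhibitory adrenergic receptor, of 0.95 ± 0.45, each with limma adjusted p = 0.619. Pde4d, which breaks down cyclic AMP, was the 1 gene of the list to pass between tissues. It was 2.59 ± 0.48 higher in brown control fat (limma adjusted p = 0.0290), where 5.02% of all genes passed in either direction. In brown knockout fat it was 2.0 ± 0.52 higher (limma adjusted p = 0.149). Its level was 0.79 in the brown control sample with low Ucp1, against -0.03 and 0.77 in the other brown controls. The part of muscle in the difference of Pde4d was not tested. Gnai2, an inhibitory G protein, had -1.13 ± 0.36 in brown minus white knockouts (limma adjusted p = 0.229).

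Of 34 further droplet proteins, lipases and fatty acid carriers 30 were tested. In white knockouts 25 had lower and 5 higher means, with a median of -0.70, and in brown knockouts 26 lower and 4 higher, with a median of -0.32; 0 passed in either by limma. Pnpla3, a droplet lipase of the same family as Pnpla2, had the smallest p in both, with -0.84 ± 0.33 in brown fat and -1.67 ± 0.36 in white fat (limma adjusted p = 0.619 and 0.314). Lpin1, a phosphatidate phosphatase of triglyceride synthesis, followed with -0.55 ± 0.26 in brown and -0.96 ± 0.29 in white fat. Fitm1, a droplet-forming protein known from muscle and brown fat, was well above background in brown fat only. It was at least 398-fold higher in brown than in white knockout fat and at least 983-fold higher in controls, measured against the lowest signal well above background. The limma adjusted p of 0.000775 and 0.000150 belong to the unbounded log2 differences of 10.64 and 12.02, which use the white values below that signal. Fitm1 passed the filter on dim probes through the brown groups alone, so these p-values give no further support. Its mean levels were 2.83 in brown knockouts and -7.81 in white knockouts, and 3.83 in brown controls and -8.19 in white controls. Among the brown control samples Fitm1 was highest in that with low Ucp1, at 4.54, against 3.63 and 3.33. All 16 skeletal muscle markers were also higher in brown fat in both genotypes. The part of muscle in the difference of Fitm1 was not tested.

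The genes outside the 10 whose levels over the 9 samples were most like the mean of the 10 were Tmem220, C1qtnf12, Rad9b, Mccc1 and Coro2b, with Pearson correlations of 0.993, 0.993, 0.989, 0.984 and 0.982. The samples share tissues and arrays, so this is a description only. Among the 10 themselves the correlation with that mean was highest for Pnpla2 (0.99) and lowest for Plin5 and Plin2 (0.59 and 0.62). Each member is part of that mean, which raises its correlation, so these values cannot be set against those of the other genes.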

How the data were processed

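RNA of 16 tissue samples was labelled with Cy3 and hybridised to 1-colour arrays, per the labels' protocols. Per the file headers, the authors' scans were read with Agilent Feature Extraction 12.0.0.7, whose processed signal is a background-subtracted intensity on a linear scale, and the array design names the mm9 assembly. The authors' deposited value table holds the mean of these intensities per probe, not scaled between arrays, as a comparison with the scanner values showed. Here log2 intensity minus each array's 75th percentile was used. Probes were named through RefSeq accessions of GRCm38.p6 (28215 of 41174 probes, 12959 unnamed), kept if well above background on all 4 arrays of a group, and each gene was given by its brightest kept probe.

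Arrays of a group whose difference divided by the scanner software's error had a median absolute deviation under 1, over 9876 bright probes, were averaged, which gave 9 samples. The 4 group means were fitted in limma 3.58.1 (R 4.3.3), with 5 residual degrees of freedom and Benjamini-Hochberg adjustment over 15466 genes at 0.05. The fit was tested on simulated data. The number of arrays limits the precision. The named genes were the 10 members, Nr3c1 and the 5 genes most like the members' mean. From the upstream and droplet lists, up to 6 genes past the threshold or the 2 with the smallest p were named. From the marker lists only Retn, Lep, Myh7 and Ckm were named by that rule. Cox7a1, Ucp1, Adipoq, Cidea, Elovl3, Cox8b, Ppargc1a, Zic1, Fabp4 and Cfd were named from the marker lists after their values were seen. Members and lists were chosen with earlier results of these data known. Fabp4 is in both the adipocyte and the droplet list. Alternatives were the 16 arrays as separate samples, also with the replicate number or the slide as a block, normexp background correction with an offset of 50, quantile normalization, the authors' values, other filters on dim probes, the mean of a gene's probes, leaving out each sample and, added after seeing the data, pairing the knockout samples by array number. The files hold no mean spot signal, so normexp was run on the median signal. Levels of different probes were not compared. Figures were drawn with matplotlib 3.10.9.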

Additional observations from a re-analysis of the deposited data

How the results depend on the processing

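With 9 samples the count of the 10 genes past the threshold was 0 in each comparison, and it stayed 0 under normexp, quantile normalization, the authors' values, the other filters, the mean of a gene's probes, the slide as a block and the scaling to adipocyte markers. With 16 arrays as separate samples it was 10 in white knockouts, 1 in brown knockouts, 3 between tissues of controls and 1 between tissues of knockouts. With the replicate block on these 16 arrays it was 10, 1, 5 and 1, so that Lipe and Cidec were added between tissues of controls. Labels give each group the numbers 1 to 4. Same-numbered arrays deviated together in white and brown knockouts (correlations of 0.57, 0.43, 0.46 and 0.29), where arrays 2 to 4 repeat each other in both tissues, and in no other pair of groups for all 4 numbers, and in white knockouts and controls the correlations ran from -0.52 to 0.41. On 16 arrays the block changed no other call. On 9 samples the averaged controls mix numbers, so the replicate block, chosen after seeing the data, paired only the knockout samples (array 1 and arrays 2 to 4 in both tissues). It left the counts of the 10 genes at 0 and every difference as it was, with adjusted p of 0.0587 for Plin5 in brown minus white knockouts, and it moved the counts of all genes between tissues to 618 in knockouts and 1881 in controls, against 233 and 777. Leaving out 1 sample at a time gave counts between 0 and 3 in white knockouts and 0 elsewhere. The 3 came without white knockout array 1, where 1653 of all genes passed. The 4 white control arrays counted as 1 sample, a setting chosen after seeing the data, left the counts at 0.

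Signs of single genes turned as follows, and no value of turned sign passed the threshold. Leaving out 1 sample gave white knockout differences of -1.74 (adjusted p = 0.0471) to 0.047 for Mgll, -1.61 to 0.34 for Plin4 and -1.79 to 0.20 for Cidec, the highest without arrays 2 to 4. In brown knockouts it gave -0.57 to 0.024 for Plin4, -1.24 to 0.18 for Plin5 and -0.56 to 0.40 for Cidec, the highest without arrays 2 to 4, and -0.60 to 0.13 for Lipe and -0.53 to 0.17 for Plin1, the highest without control array 4, where Cidec was 0.11. Without both samples of arrays 2 to 4, a setting chosen after seeing the data, the values were 0.047 for Mgll, 0.34 for Plin4 and 0.20 for Cidec in white, and 0.024 for Plin4, 0.18 for Plin5 and 0.40 for Cidec in brown fat, with -0.15 for Pnpla2, -0.28 for Abhd5, -0.30 for G0s2, -0.71 for Plin1 and -0.60 for Plin4 in brown minus white knockouts, and -0.00260 for Lipe, -0.26 for Mgll and -0.31 for Plin4 in the difference of the knockout effects. Between tissues, leaving out 1 sample gave -0.63 to 0.065 for Plin4 and -0.52 to 0.021 for Pnpla2 in controls, and all members but Plin5 turned in knockouts: Pnpla2 -0.46 to 1.17, Lipe -0.78 to 0.68, Mgll -0.96 to 0.83, Abhd5 -0.62 to 1.21, G0s2 -0.11 to 0.82, Plin1 -0.68 to 0.76, Plin4 -0.90 to 1.05 and Cidec -1.12 to 0.87, each lowest without white arrays 2 to 4 and highest without white array 1, and Plin2 -0.59 to 0.38, with 0.039 without white arrays 2 to 4. The difference of the knockout effects ran, between the same settings, from -0.23 to 1.40 for Pnpla2, -0.082 to 1.38 for Lipe, -0.41 to 1.38 for Mgll, -0.24 to 1.59 for Abhd5, -0.61 to 1.33 for Plin4 and -0.29 to 1.71 for Cidec.

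Scaling to adipocyte markers, also chosen after seeing the data, set the median of all genes at 0.35 in brown and 1.08 in white knockouts. White differences were then 0.10 for Pnpla2, 0.22 for Lipe, 0.27 for Mgll, 0.21 for Plin1, 0.48 for Plin4 and 0.32 for Cidec. Brown ones were 0.044 for Pnpla2, 0.23 for Lipe, 0.11 for Mgll, 0.011 for Abhd5, 0.33 for Plin1, 0.20 for Plin4 and 0.39 for Cidec. Between tissues of controls they were 0.16 for Pnpla2, 0.00894 for Abhd5, 0.032 for G0s2 and 0.11 for Plin4, between tissues of knockouts -0.21 for Plin1 and -0.18 for Plin4, and in the difference of the knockout effects -0.054 for Pnpla2, -0.15 for Mgll and -0.28 for Plin4. The authors' unscaled values set the median of all genes at 0.31 in brown and -0.23 in white knockouts, and gave brown differences of 0.00385 for Pnpla2, 0.19 for Lipe, 0.072 for Mgll, 0.29 for Plin1, 0.16 for Plin4 and 0.35 for Cidec, and 0.23 for Lipe, 0.22 for Mgll, 0.18 for Plin2 and 0.16 for Cidec in brown minus white knockouts. In brown knockouts Plin1 was 0.063 with 16 arrays, with or without the block, 0.034 with normexp and 0.13 with quantile normalization, Cidec 0.073 with normexp and 0.24 with quantile normalization, and Plin4 0.063 with the last. In brown minus white knockouts, 16 arrays with or without the block gave 0.28 for Lipe, 0.31 for Mgll, 0.069 for Plin2 and 0.14 for Cidec, the slide as a block 0.32, 0.63 and 0.66 for Lipe, Mgll and Cidec, quantile normalization -0.19 for Plin1 and the mean of a gene's probes 0.012 for Lipe. With the slide as a block, tissue differences in controls were 0.39 for Pnpla2, 0.082 for Mgll, 0.23 for Abhd5 and 0.95 for Plin4. The cause was not tested. G0s2 had a negative difference in both knockout comparisons under every alternative run. Plin2 had no turned sign in either of them, and all alternatives reused the same arrays. The 2 or 3 samples of a group limit what the tests could resolve.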
